A study of Sus scrofa with 4 samples.

Results

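The genes described here are IL2RG, which encodes the common gamma chain, 2 further receptor chains, IL2RA and IL13RA1, and the cytokines IL2, IL4, IL7 and IL15. They were found on the arrays by the RefSeq accession of each probe, which gave 9 probes for the 7 genes out of 6686 probes named in the same way for 3020 genes. IL2RG and IL15 each had a pair of probes, and the other members had 1 each. Thymus RNA of mIL2RG+/Δ69-368 KO pigs was compared with thymus RNA of wildtype (WT) pigs, with 2 arrays per genotype, 1 sample per array. The labels name no treatment. All animals were Minnesota miniature swine. The genotype of the KO animals is written in the labels as IL2RG+/-, and their ages and sex are not given for the arrays in the sources used here. The KO pigs came from donor cells in which a TALEN pair, a designed nuclease, had cut exon 2 of IL2RG, followed by somatic cell nuclear transfer. As several edited colonies carrying different small deletions served as donors, the exact deletion of each KO array is not known here. Most KO pigs had no thymus, and the arrays were made from the KO animals in which a small thymus remained, so that they describe a rudimentary organ set against a full one. The labels number the samples as replicates, and the p-values measure the spread between these 4 arrays only.

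The common gamma chain is a shared subunit of the receptors for IL2, IL4, IL7, IL9, IL15 and IL21. It passes the signal on through the kinase JAK3, while the partner chain of each receptor binds JAK1, and STAT proteins, STAT5 above all, then carry the signal to the nucleus. In the thymus, IL7 from stromal cells keeps early thymocytes alive and dividing, and loss of the chain in humans causes X-linked severe combined immunodeficiency. IL4 can also signal without the common gamma chain, through IL4R paired with IL13RA1.

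On each array a spot of 1 short DNA probe lights up according to the amount of matching mRNA in the labelled sample. The values below are normalized log2 signals, which is the log2 of the background-subtracted signal minus that of the 75th percentile of the same array, so that 0 is the level of the 75th percentile. A step of 1 is 2-fold, and levels of different probes cannot be compared with each other. The 4 arrays had 67.9% to 74.5% of their probes well above background, higher in both KO arrays than in either WT array, and a 75th percentile signal of 621 to 762. The WT arrays differed from each other by 2-fold or more at 8.78% of the probes tested and the KO arrays at 2.34%. KO replicate 1 shared slide 1 with WT replicate 2, and KO replicate 2 shared slide 2 with WT replicate 1. All 9 member probes were well above background on all 4 arrays and none was saturated or marked as an outlier. A gene was called changed when its adjusted p in limma was under 0.05 and its change at least 2-fold. Such calls were made for 10882 of 31959 probes tested (34.0%).

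IL2RG was lower and IL15, IL4, IL13RA1, IL2RA and IL7 were higher in KO thymus, whereas IL2 was not called. Thus 6 of the 7 genes were called by their brightest probe, where calls were made for 37.7% of the 2702 named genes tested. The 7 genes were chosen with earlier results of these data known and leave out relatives such as IL4R, IL7R and IL9, described below, so these counts describe the members and nothing is read from their share. Among the members 5 were higher and 1 was lower, and among the named genes 25.2% were called higher and 12.6% lower. On the level of probes, 8 of 9 were called and the same number had KO values that did not overlap the WT values, which was true of 78.7% of all probes tested. The median log2 difference, KO minus WT, was 1.26 over the 7 genes and -0.06 over all probes tested. The plot of the members' signals by array shows these values.

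**Figure D1:**
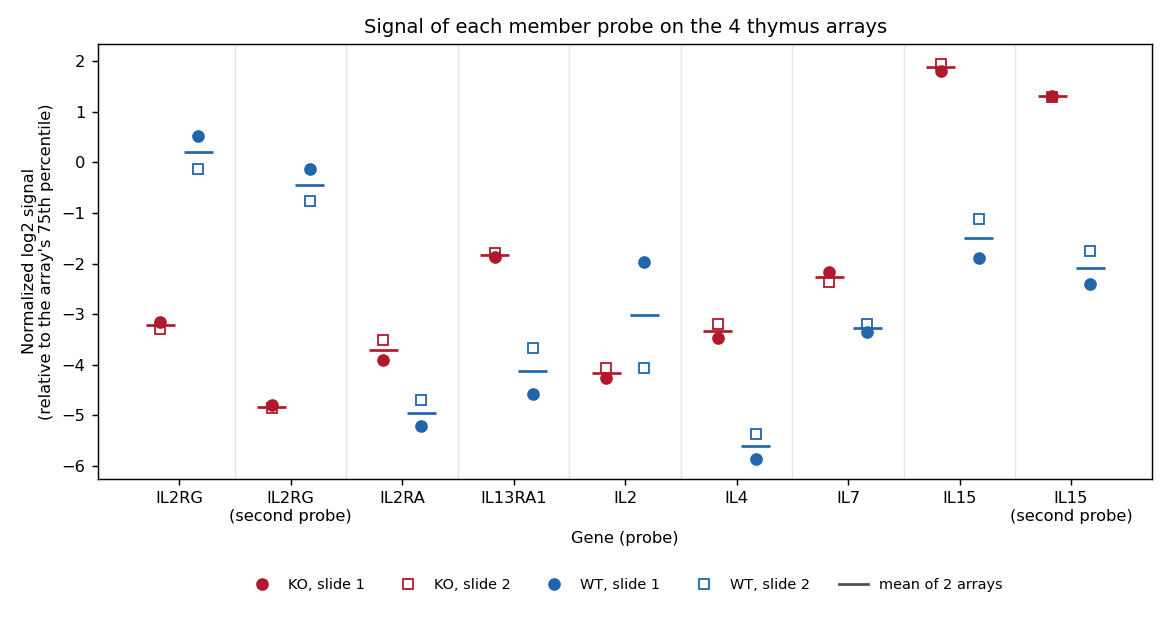
Normalized log2 signal of the 9 member probes on each of the 4 arrays (vertical axis, relative to the 75th percentile of the array; points are single arrays and the horizontal bars are means of 2 arrays). The KO points of both IL2RG probes lie below the WT points, those of IL2RA, IL13RA1, IL4, IL7 and IL15 lie above them, and for IL2 WT replicate 1 lies among the KO points.

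IL2RG, the targeted gene, was read first because it checks the labels. At its brightest probe (A_72_P303129, transcript NM_214083) the normalized log2 signal of KO replicates 1 and 2 was -3.15 and -3.29, and that of WT replicates 1 and 2 was -0.13 and 0.52. Both KO arrays were far below both WT arrays, which is the direction the labels call for. The means were -3.22 ± 0.10 in KO and 0.20 ± 0.46 in WT (SD, n = 2 each), a log2 difference of -3.41 (standard error 0.27, 95% interval -4.14 to -2.69, adjusted p = 0.00256 in limma), which is 10.7-fold lower. The same direction was found on both slides, with -3.67 on slide 1 and -3.16 on slide 2, and the adjusted p with slide as a block was 0.00787 in limma. Of all probes tested, 1.19% fell at least as far.

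The second IL2RG probe (A_72_P572539) read -4.80 and -4.86 in KO and -0.77 and -0.13 in WT. Its log2 difference was -4.38 (standard error 0.26, 95% interval -5.08 to -3.68, adjusted p = 0.00208 in limma), which is 20.8-fold lower. With normexp the difference at this probe was -2.61 (adjusted p = 0.000565 in limma). Its raw signals of 27.4 and 23.9 in KO compare with 365 and 634 in WT. They were still above the lowest signals that counted as well above background on the KO arrays, 9.27 and 10.3. IL2RG signal was reduced but remained measurable in both KO arrays. The positions of the probes in the transcript are not given in the sources used here, so the probes count IL2RG mRNA and do not show the edit. Because whole tissue was measured, fewer cells that carry a transcript and less of it per cell cannot be told apart, for IL2RG or for any gene below.

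IL2RA and IL13RA1 were both higher in KO thymus, by 2.40-fold and 4.85-fold. IL2RA, the alpha chain of the IL2 receptor also known as CD25, raises the affinity for IL2 and is present on early thymocytes, on activated T cells and on regulatory T cells. Its probe (A_72_P303174, NM_213835) read -3.90 and -3.51 in KO and -4.70 and -5.22 in WT. The groups did not overlap, and the log2 difference was 1.26 (standard error 0.26, 95% interval 0.55 to 1.97, adjusted p = 0.0207 in limma). It was 1.32 on slide 1 and 1.20 on slide 2 (adjusted p = 0.0128 with slide as a block in limma). A change at least this large was common, since 19.7% of all probes tested rose as far. The raw signals were low, 51.1 and 61.1 in KO and 23.8 and 18.6 in WT, and the call of IL2RA was lost when the background was corrected with normexp, an alternative model of the background (0.39, adjusted p = 0.134 in limma), or the arrays were quantile normalized (0.94, below 2-fold). It was also lost without KO replicate 1 (1.46, adjusted p = 0.0623) or without KO replicate 2 (1.06, adjusted p = 0.121).

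IL13RA1 binds IL13 and, with IL4R, forms a receptor for IL4 that does not need the common gamma chain. Its probe (A_72_P088561, NM_214341) read -1.88 and -1.80 in KO and -3.66 and -4.58 in WT. The KO arrays were nearly equal and the WT arrays further apart, and the highest WT value stayed below the lowest KO value. The log2 difference was 2.28 (standard error 0.35, 95% interval 1.35 to 3.21, adjusted p = 0.00931 in limma). It was 2.70 on slide 1 and 1.85 on slide 2 (adjusted p = 0.0131 with slide as a block in limma), and 8.93% of all probes tested rose at least as far. With normexp the difference was 1.15 (adjusted p = 0.0109 in limma), still called.

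The cytokine with the largest difference was IL15, which supports natural killer cells and memory T cells and is made by myeloid and stromal cells. At its brightest probe (A_72_P580842, NM_214390) the KO arrays read 1.80 and 1.95 and the WT arrays -1.11 and -1.90. Both KO values were thus above both WT values. The log2 difference was 3.38 (standard error 0.31, 95% interval 2.56 to 4.20, adjusted p = 0.00317 in limma), which is 10.4-fold higher. It was 3.70 on slide 1 and 3.06 on slide 2 (adjusted p = 0.00801 with slide as a block in limma). The second IL15 probe (A_72_P035856) read 1.32 and 1.29 in KO and -1.76 and -2.41 in WT, with a difference of 3.40 (standard error 0.26, adjusted p = 0.00252 in limma). Both probes therefore gave the same size, and only 2.32% and 2.26% of all probes tested rose at least as far.

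IL4, the cytokine of type 2 helper T cells, was 4.83-fold higher in KO. Its probe (A_72_P146761, NM_214123) read -3.47 and -3.20 in KO and -5.36 and -5.86 in WT. The log2 difference was 2.27 (standard error 0.24, 95% interval 1.62 to 2.92, adjusted p = 0.0043 in limma), with 2.38 on slide 1, 2.16 on slide 2 and an adjusted p of 0.00807 with slide as a block. The size of this difference depends on how dim signals are treated. In WT the raw signals of IL4 were 15.1 and 12.0, close to the lowest signals that counted as well above background on those arrays, 11.8 and 11.5, and with normexp the difference was 0.74 (adjusted p = 0.00757 in limma), below 2-fold.

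IL7 was 2.02-fold higher in KO, at the edge of the 2-fold threshold. Its probe (A_72_P077941, NM_214135) read -2.17 and -2.36 in KO and -3.20 and -3.36 in WT. The log2 difference was 1.01 (standard error 0.17, 95% interval 0.56 to 1.47, adjusted p = 0.012 in limma). The arrays of each genotype lay close together and the groups did not overlap, and the difference was 1.19 on slide 1 and 0.84 on slide 2 (adjusted p = 0.0234 with slide as a block in limma). Of all probes tested, 22.8% rose at least as far. The difference was below 2-fold with quantile normalization (0.80), median scaling (0.76), normexp (0.57), the deposited log2 values (0.85), without KO replicate 1 (0.92) and without WT replicate 2 (0.93). With KO replicate 2 left out the difference was 1.11 (adjusted p = 0.0788 in limma).

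IL2, the growth factor of activated T cells, was not called. Its probe (A_72_P146391, NM_213861) read -4.27 and -4.06 in KO and -4.07 and -1.97 in WT. WT replicate 1 lay between the KO arrays, and WT replicate 2 stood above the other 3 arrays. The log2 difference was -1.15 (standard error 0.73, 95% interval -3.10 to 0.81, adjusted p = 0.255 in limma), which leaves room for a fall of several fold as well as for a small rise. It was -2.31 on slide 1 and 0.01 on slide 2 (adjusted p = 0.227 with slide as a block in limma). The value rests on WT replicate 2, because it was -0.09 without that array (adjusted p = 0.695 in limma) and -2.20 without WT replicate 1 (adjusted p = 0.00223 in limma). The raw signal was 178 on WT replicate 2 and 36.9 to 41.7 on the other arrays, and the spot carried no outlier mark. A gap between the WT arrays as wide as that of IL2 was found at 1.07% of all probes tested.

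**Figure D2:**
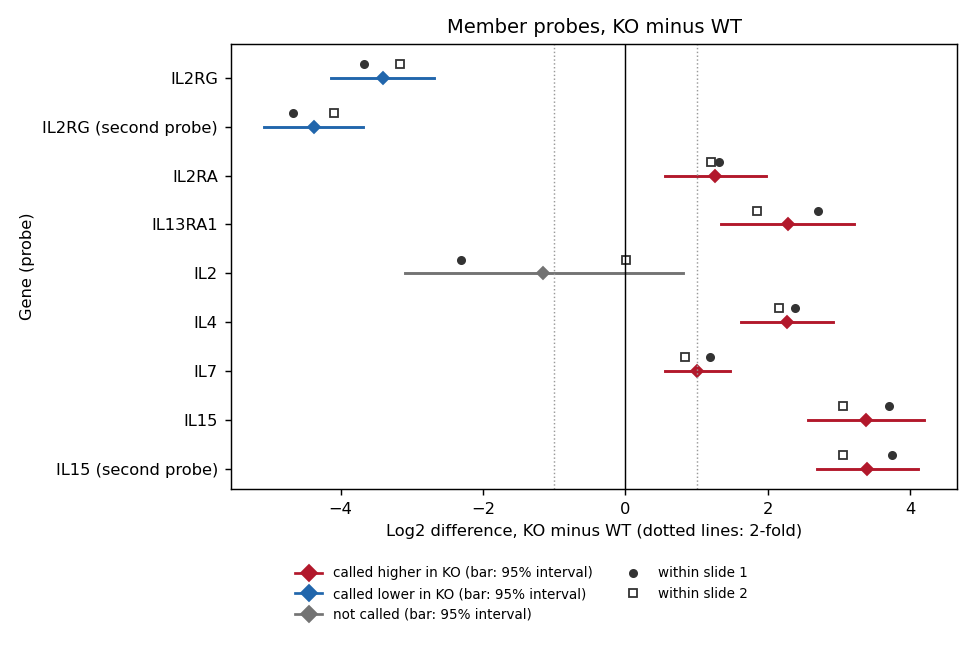
Log2 difference, KO minus WT, of the 9 member probes (horizontal axis) with 95% intervals from limma and, as smaller marks, the difference within slide 1 and within slide 2. Both IL2RG probes lie left of -1, the interval of IL2 spans 0 and its slides differ (-2.31 and 0.01), and both IL15 probes lie near 3.4.

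The other genes of the pathway were taken from 4 lists that hold 34 genes, of which 21 had a named probe and 19 could be tested. By their brightest probes 2 of the 19 were higher in KO, 5 were lower and 12 were not called, with a median log2 difference of -0.07 and a range of -3.72 to 2.10. The share of these genes that was called was close to the 37.7% of all named genes (25.2% higher and 12.6% lower). Of the receptor chains on these lists, IL7R was lower and IL13RA2, a receptor for IL13, was higher, while IL4R did not reach 2-fold. IL2RB, IL9R, IL15RA, IL21R and CRLF2 were not named on the arrays, as was the case for JAK3.

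IL7R, the alpha chain that binds IL7, read -0.40 and -0.52 in KO and 1.09 and 1.1 in WT. It fell by 1.55 on the log2 scale (standard error 0.15, adjusted p = 0.00372 in limma), and its second probe fell by 1.52 (standard error 0.18, adjusted p = 0.00548 in limma). The ligand IL7 and its receptor chain thus moved in opposite directions, and neither had overlapping groups. IL13RA2, a receptor that binds IL13, read -2.55 and -2.20 in KO and -4.77 and -4.17 in WT, which differ by 2.10 (standard error 0.28, adjusted p = 0.00675 in limma), or by 1.03 with normexp. Its second probe was not well above background in WT and entered the test through its KO signals alone. It was at least 1.47-fold higher in KO, a bound below the 2-fold threshold. This bound sets the KO mean against the WT mean, with each WT array taken at no less than its lowest signal well above background. IL4R, the alpha chain for IL4, had a difference of 0.68 (standard error 0.15, adjusted p = 0.0259 in limma), below 2-fold. Of the other cytokines on the lists, IL9 was not well above background in WT and was not called (adjusted p = 0.289 in limma). IL21 and IL13 were not well above background on any array.

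Among the kinases and STAT proteins, only STAT5B of 7 genes tested was called by its brightest probe. STAT5B and STAT5A are the main STAT proteins of IL2, IL7 and IL15. STAT5B had a difference of -1.06 (standard error 0.20, adjusted p = 0.0164 in limma), but its second probe had -0.37 (adjusted p = 0.126). The call of STAT5B was lost with quantile normalization (-0.97), with normexp (-0.99), with the deposited log2 values (-0.97) and without KO replicate 1 (-0.97), KO replicate 2 (-1.16, adjusted p = 0.0859 in limma) or WT replicate 2 (-0.88). STAT5A had -0.07 (standard error 0.16, 95% interval -0.50 to 0.36), and STAT6, the STAT protein of IL4, had 0.05 (95% interval -0.47 to 0.57). For both the interval stayed within 2-fold in either direction. JAK1 had -0.59 (standard error 0.16, adjusted p = 0.042 in limma) and its 5 probes ranged from -0.84 to -0.41, none of them called. JAK2 and TYK2 had 0.71 (standard error 0.31) and -0.09 (standard error 0.19) and were not called. Without WT replicate 1, the difference of JAK2 at its brightest probe was 1.11, beyond 2-fold. The second JAK2 probe had 0.2 over all 4 arrays (adjusted p = 0.394 in limma). STAT3, used by the IL21 receptor, had 0.82 at its brightest probe (standard error 0.18, adjusted p = 0.0228 in limma), below 2-fold, whereas 2 of its 4 probes were called higher, with 1.42 and 1.35.

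Of the feedback genes and targets 8 were tested, of which 3 were lower, 1 was higher and 4 were not called. GATA3, a transcription factor of T cell development and of type 2 helper cells, was lowest with -3.72 (standard error 0.22, adjusted p = 0.00208 in limma) and -3.96 at a second probe. CCND3, the cyclin of dividing thymocytes, had -2.58 (standard error 0.19, adjusted p = 0.00236 in limma) and -3.44 at its second probe. BCL2L1, which encodes the survival protein BCL-XL, read -5.51 and -4.48 in KO and -2.91 and -2.12 in WT, with a difference of -2.48 (standard error 0.46, adjusted p = 0.0153 in limma). BCL2L1 remained called with normexp, at -1.20. Another cyclin, CCND2, was higher by 1.34 (standard error 0.23, adjusted p = 0.012 in limma). CCND2 was no longer called without KO replicate 1 (1.44, adjusted p = 0.0591 in limma) or without KO replicate 2 (1.24, adjusted p = 0.0844 in limma). BCL2L1 was not called without KO replicate 1 (-1.97, adjusted p = 0.05 in limma). The cytokine signalling inhibitors SOCS2 (-0.72) and SOCS3 (0.61), the growth regulator MYC (-0.34) and FOXP3 (0.32), the transcription factor of regulatory T cells, were not called. SOCS2 was called without WT replicate 2, with -1.04 (adjusted p = 0.0131 in limma). FOXP3 read from 1 of its 3 probes, since the others were not well above background on both arrays of either genotype.

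**Figure D3:**
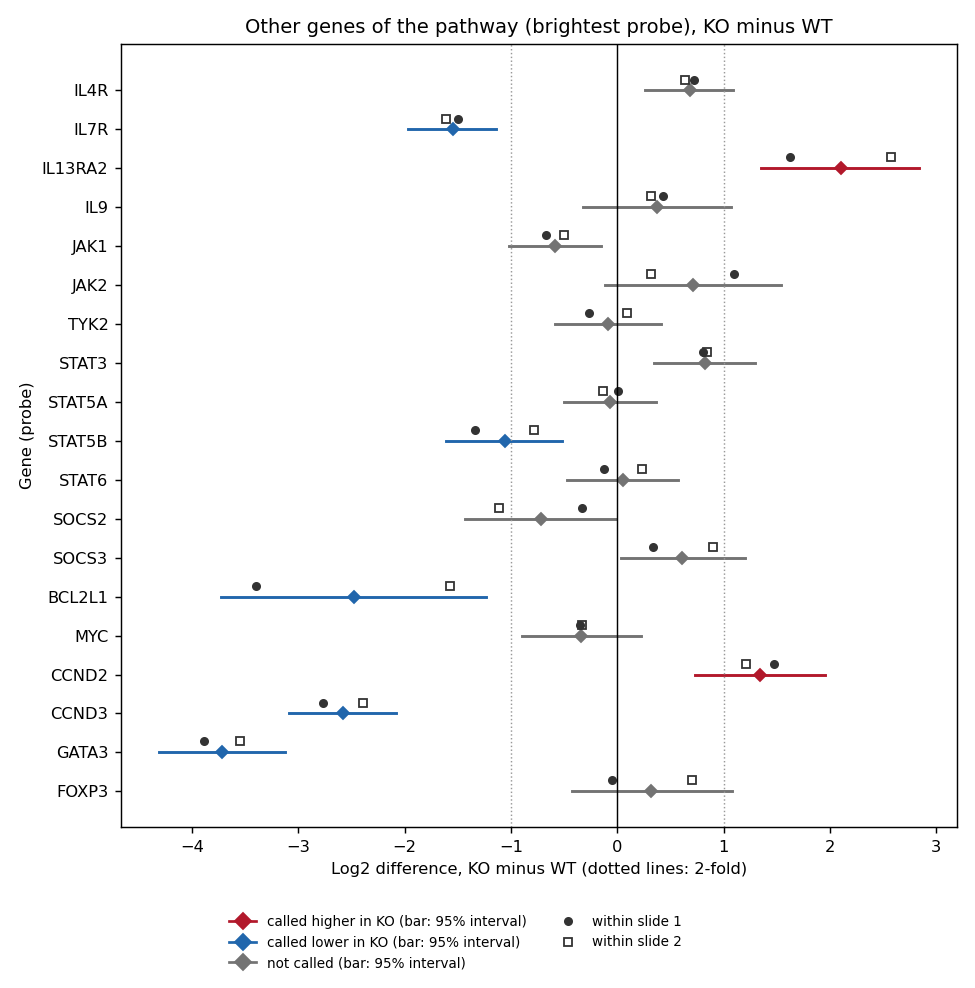
Log2 difference, KO minus WT, with 95% intervals from limma for the 19 tested pathway genes at their brightest probes, arranged by list. GATA3, CCND3, BCL2L1, IL7R and STAT5B are called lower, IL13RA2 and CCND2 are called higher, and the intervals of STAT5A and STAT6 stay within 1 of 0.

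Many, but not all, of the tested markers of cells that a thymus holds also differed between the genotypes. All 13 tested of 16 thymocyte markers fell in KO. Their median log2 difference was -2.60 and the range -7.76 to -1.47, where the extreme was RAG2, which was well above background on 1 of the 2 KO arrays. The mean level of these 13 was -0.09 and -0.51 in KO, far below the 3.42 and 3.90 in WT. Both IL2RG probes fell further than the median thymocyte marker, and 5 of the 13 markers fell further than either of them. The 3 B cell markers tested were lower as well, with mean levels of -5.89 and -6.02 in KO and -1.99 and -2.02 in WT. The part of thymocyte and B cell content in the IL2RG, IL7R, CCND3 and GATA3 values was not tested.

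On the side that rose, all 9 tested of 12 macrophage markers were higher in KO, with a median of 1.98 and a range of 1.27 to 2.39, and their mean level was 3.91 and 4.25 in KO against 2.34 and 1.89 in WT. IL15 rose further than each of these 9, while all 9 rose further than IL2RA and IL7. Of the 9, 2 rose further than IL4 and IL13RA1. By contrast, 1 of 4 fibroblast markers and 1 of 5 fat cell markers tested rose further than IL15. The fat cell marker was PLIN1 (3.99, standard error 1.04). It was well above background on only 3 of the 4 arrays and read -8.0 on WT replicate 2. All 4 tested of 8 fibroblast markers (1.39 to 4.54) and 4 of 5 endothelial markers tested were higher. Of 3 epithelial markers tested KRT8 and CLDN4 were higher and EPCAM was not, and FOXN1, PSMB11 and AIRE, which define the thymic epithelium, were not named on the arrays. Of 3 natural killer and cytotoxic markers tested KLRK1 and NKG7 were higher, whereas GZMB had -0.76 and was not called. NCR1, a natural killer cell marker on the same list, was named on the arrays but did not pass the filter for testing. Of 2 dendritic cell markers tested 1 was higher, as was 1 of 2 mast cell markers. Of 5 fat cell markers 3 were higher, and the mean level of the 5, which includes PLIN1, was highest in KO replicate 2 (1.77, compared with 0.43 in KO replicate 1 and -0.47 and -1.61 in WT). The part of these cell types in the rise of IL15, IL4, IL13RA1, IL2RA and IL7 was not tested.

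**Figure D4:**
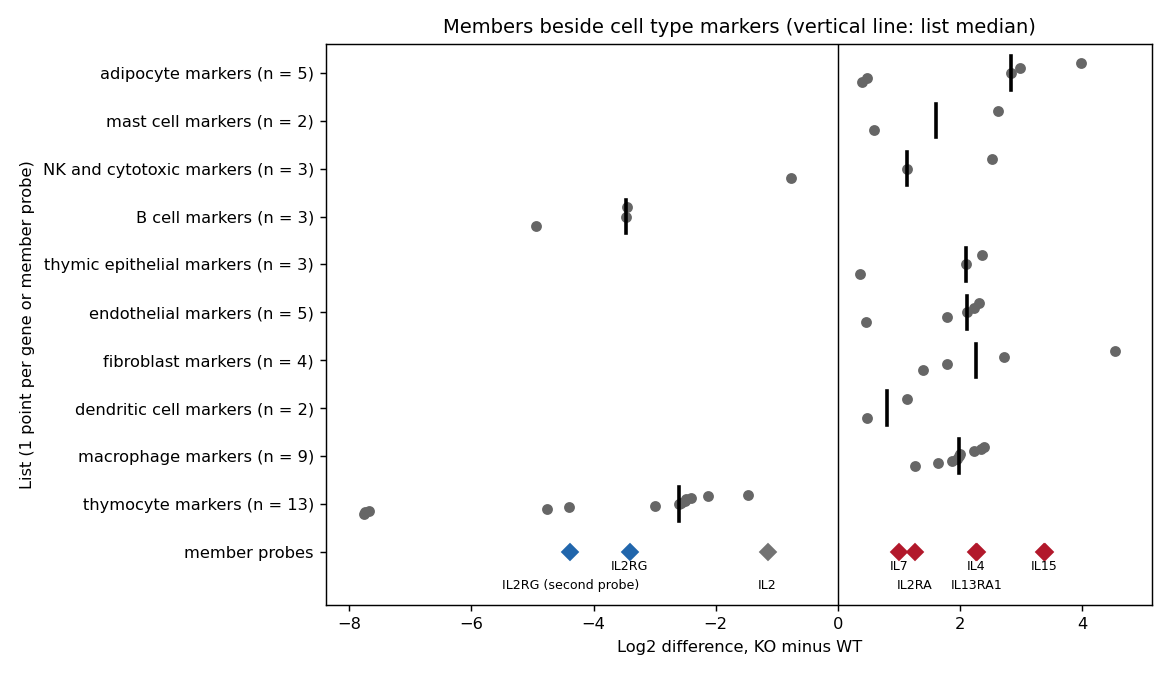
Log2 difference, KO minus WT, of the 9 member probes beside that of each tested marker gene, 1 row per marker list (1 point per gene or probe, and a vertical bar at the median of each list). The IL2RG probes lie within the span of the 13 thymocyte markers, and the IL15 probes lie to the right of all 9 macrophage markers. Further right than the IL15 probes lie 1 fibroblast marker and 1 fat cell marker, PLIN1, which was well above background on only 3 of the 4 arrays.

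The genes whose pattern over the 4 arrays was nearest to that of IL2RG and IL15 were found among 2507 named genes, by the Euclidean distance between log2 profiles after each gene's own mean was subtracted. For IL2RG these were TNNI1, a troponin of slow muscle, at a distance of 0.13, ADM5 at 0.25 and AMT, an enzyme of glycine breakdown, at 0.27. Their log2 differences were -3.43 for TNNI1, -3.47 for ADM5 and -3.54 for AMT. For IL15 they included the complement inhibitor CD59 at 0.18 and the phosphodiesterase PDE3A at 0.19. Their differences were 3.41 for CD59 and 3.26 for PDE3A. With 4 arrays a small distance says little more than that these genes differed between the genotypes by a like amount.

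**Figure D5:**
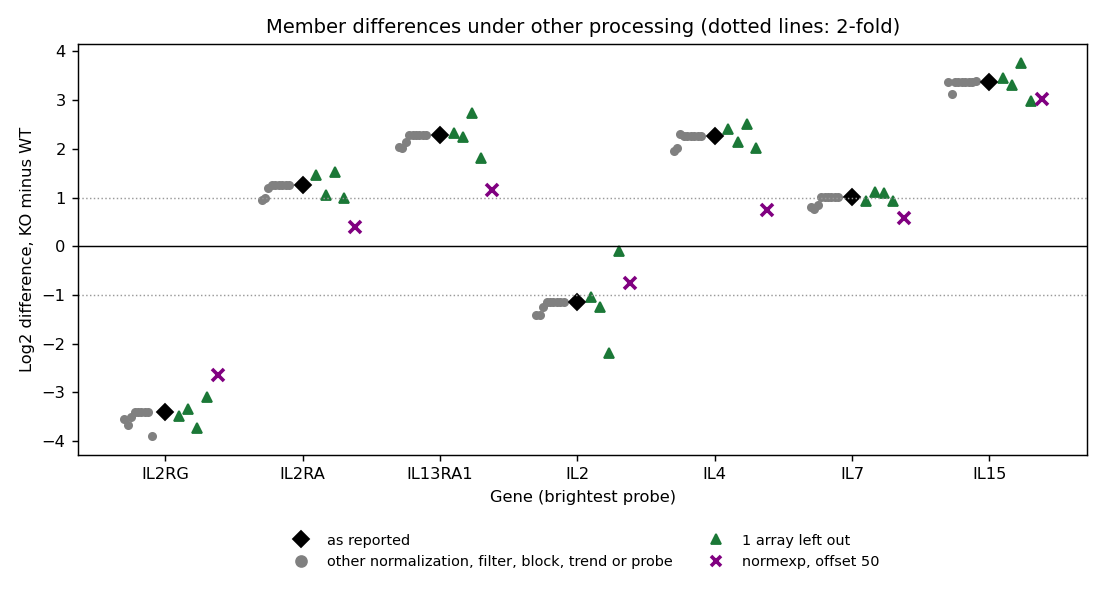
Log2 difference, KO minus WT, of each member gene at its brightest probe as reported (diamonds), with 1 array left out (triangles), with normexp (crosses) and under the other alternatives (circles) (each point is a setting and the dotted lines at -1 and 1 mark 2-fold). IL2RG and IL15 stay beyond 2-fold under each of them, IL7 lies on both sides of 1, IL2RA and IL4 fall below 1 with normexp and IL2RA also with quantile normalization, and IL2 runs from -2.20 to -0.09 over the arrays left out.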

How the data were processed

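Thymus RNA of 2 KO and 2 WT samples was read on 1-colour Agilent porcine arrays. The deposited scanner output holds the intensity of each spot, which the authors made with Agilent Feature Extraction 11.0.1.1 (per the submitters' processing notes), after background subtraction and without scaling of the arrays to each other. It also marks spots that are well above background, saturated or outliers. The authors deposited log2 values for 27974 probes as well, with a median of 8.49 on each array. They ran the same way as the scanner output (r of 0.9998 to 0.9999), and the sorted values of the arrays lay within 0.000436 of each other, which is the form quantile normalization gives. The sources used here do not name it. The methods name Cy-3 and Cy-5, whereas labels and files show 1 channel, so arrays were compared with each other.

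Of 43603 probes, 6 with outlier marks were left out. The log2 of the signal minus that of the array's 75th percentile was tested with limma 3.58.1 (lmFit, eBayes) in R 4.3.3 for the 31959 probes that KO or WT showed well above background on both of its arrays, of which 6020 were named, with Benjamini-Hochberg adjustment over all of them. An exact permutation test over 2 against 2 arrays cannot go below 0.333 (two-sided) and was not used. The number of arrays limits the precision. Probes were named by RefSeq accession, and a gene was read from the probe with the highest mean over the 4 arrays. Genes were named by a rule that took every member, every tested gene of the 4 pathway lists and the 3 nearest profiles of IL2RG and of IL15, of which 1 is not reported here. Members, lists and markers were chosen with earlier results of these data known. The limma fit and the t-test were tried on simulated data with known differences, and the other steps were not. The simulation gave both genotypes the same spread and few probes a difference, unlike these arrays. Alternatives were quantile normalization, median scaling, normexp (offset 50, on median signals), the deposited log2 values, other filters, probe choice and variance models, the methods' t-test, a block for slide or for replicate number, and leaving out each array. Sequences and genome positions of the probes were not used here.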

Additional observations from a re-analysis of the deposited data

How the results depend on the processing

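No direction of a member was reversed under the 17 alternatives run for each gene. IL2RG (-3.90 to -2.64), IL13RA1 (1.15 to 2.74) and IL15 (2.99 to 3.77) were called under 15 of them and missed only the methods' t-test after adjustment. That test leaves the values as they are (IL2RG -3.41, IL2RA 1.26, IL13RA1 2.28, IL4 2.27, IL7 1.01 and IL15 3.38) and none of them passed after Benjamini-Hochberg or Bonferroni adjustment. It thus called 0 of 7 genes and 0 of 9 probes under both adjustments, and 1 and 0 of 19 pathway genes, against 6, 8 and 7 in limma. Without adjustment, at the methods' threshold of 0.05, it called 5 genes, 7 probes and 6 pathway genes, and IL2RA was not among them. The t-test called 1489 of all probes after Benjamini-Hochberg adjustment and 0 after Bonferroni, compared with 10882 in limma. Normexp called 3 genes, 5 probes and 6610 of all probes, with 0.39 for IL2RA, 0.74 for IL4 and 0.57 for IL7, and its offset of 50 shrinks ratios of dim signals by construction. IL2RA was 0.94 and IL7 0.80 with quantile normalization, and IL7 was 0.76 with median scaling and 0.85 with the deposited values. The median of all probes tested was -0.06, and -0.32 with median scaling, which lowered the share of calls that were higher in KO from 61.7% to 47.9%. With 1 array left out, the lone array of a genotype being assumed to vary like the others, the ranges were -3.74 to -3.09 for IL2RG, 1.00 to 1.52 for IL2RA, 1.81 to 2.74 for IL13RA1, -2.20 to -0.09 for IL2, 2.02 to 2.52 for IL4, 0.92 to 1.11 for IL7 and 2.99 to 3.77 for IL15. The counts were then 4 to 7 genes, 6 to 9 probes and 4 to 8 pathway genes, the lowest of the last without KO replicate 1, while the calls over all probes ran from 6090 (without KO replicate 2) to 12713 (without WT replicate 1). With the replicate block, 6 genes, 8 probes and 7 pathway genes were called, as without it. Replicates share only a number, and the deviations of same-numbered arrays correlated at -0.29 over probes. Crossing the pairs, as they lay on the slides, only turns the sign of this correlation (0.29). The slide block called the same 3 counts. Signals near the background limit the size of the differences of IL4 and IL2RA, which were dim in WT.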
